A study of Macaca mulatta with 304 samples.

Results

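The whole blood drawn from rhesus macaques (Macaca mulatta) on Day 120 after irradiation of the upper thorax was compared with the blood drawn from the same animals on Day 90. All animals with a library on both days were used, which gave 14 of the 28 animals and 28 libraries, beside 276 others of the series. The animals were adult rhesus macaques, and all had been irradiated, so neither day was an unexposed control. The lower dose (LD) of 9.8 Gy had been given to 11 of the 14 animals (6 males and 5 females) and the higher dose (HD) of 10.7 Gy to 3 animals, all females. The last blood draw was on Day 120 in 3 animals, between Day 127 and Day 172 in 5 and on Day 270 in 6. According to the study's methods a raised respiratory rate, the sign of pneumonitis, led to a tapering course of injected dexamethasone, a synthetic glucocorticoid. Which of these animals were given it, and on which days, was not used here, so its part in the results below was not tested.

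Lung injury after thoracic irradiation unfolds in a delayed phase of pneumonitis, in which leukocytes enter the lung, and a later phase of fibrosis. Whole blood RNA comes from neutrophils, monocytes, lymphocytes, eosinophils, basophils, platelets and immature red cells, so it reads both the make-up of the blood and the genes active in each cell type. Glucocorticoids, whether made by the adrenal gland or given as a drug, bind a nuclear receptor that switches on genes such as FKBP5, TSC22D3, PER1 and ZBTB16 in leukocytes, and they are known to raise neutrophil numbers and lower lymphocyte and eosinophil numbers in blood. In bulk samples such as these, fewer cells of a type and less RNA per cell cannot be told apart.

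The total count of a library was 5380587 to 10043641 on Day 90 and 4869123 to 9991332 on Day 120, and 13751 of 21070 genes were tested. Library names carry numbers whose meaning the sources used here do not give, and both libraries of each animal belonged to the same range of numbers. In 10 animals both carried the number 0, and the other 4 animals carried other numbers. Summed expression of 8 genes of the Y chromosome fitted the labelled sex in all 28 libraries. The Day 120 library of animal B2507 had a median correlation of 0.864 with the other libraries, where the rest had at least 0.911.

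A set of 6 libraries stood apart before any test, and all 6 were of Day 120. FKBP5 encodes a chaperone of the glucocorticoid receptor whose own transcription the receptor raises. Levels are in CPM, counts scaled by the library size and an upper quartile factor, which compare libraries and not genes. On Day 90 the FKBP5 level ranged from 125.1 to 283.5 CPM over the 14 animals, with a median of 165.5 CPM. On Day 120 it was 2075 CPM in B1003, 2140 CPM in B1005, 2027 CPM in B1006, 1948 CPM in B1503, 1596 CPM in B1506 and 2648 CPM in B2507. The other 8 animals had 106.4 to 283.4 CPM on that day, close to the range of Day 90. The upper quartile factor was 0.613 to 0.844 in the 6 libraries and 0.939 to 1.07 in those 8. A lower factor gives a higher CPM. The 24 libraries drawn 2 days before irradiation (Day -2) held 140.5 to 437.3 CPM. The 6 animals were 3 males and 3 females, 5 of them LD and 1 HD. The last draw was on Day 120 in 3 of them, on Day 172 in 1 and on Day 270 in 2. This split was made after the values were seen, so the 6 and the 8 animals were not tested against each other. Results are given for all 14 animals. The fit without these 6 animals is given for many of them, but not for every list and gene.

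**Figure D1:**
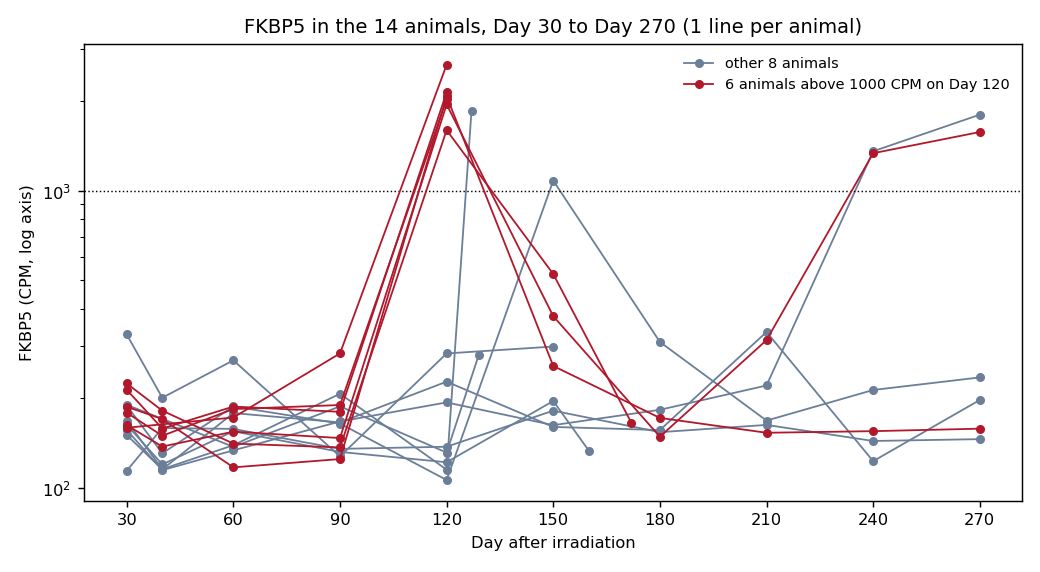
FKBP5 level (CPM, log axis) in the libraries of the 14 animals from Day 30 on, against the day of the draw. Each animal is 1 line, with the 6 animals above 1000 CPM on Day 120 in colour. The 14 values of Day 90 lie between 125.1 and 283.5 CPM, and on Day 120 the 6 lie between 1596 and 2648 CPM and the other 8 between 106.4 and 283.4 CPM.

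In the whole series 14 libraries, from 11 animals, held more than 1000 CPM of FKBP5, and the highest of the other 290 held 717 CPM. By day these were 2 libraries before Day 90 (0.855% of them), none of those of Day 90, 6 of 14 on Day 120 and 6 of 37 later. Of the 12 later libraries of the 6 animals, 7 lay within the Day 120 range of the other 8. FKBP5 on Day 150 was 257 CPM in B1003, 378 CPM in B1503 and 524 CPM in B1506. Of the 12, 2 were above 1000 CPM, both from B1503 (Day 240 and Day 270).

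Across all 14 animals, Day 120 blood had more RNA of neutrophil, glucocorticoid-responsive and interleukin-1 receptor genes and less RNA of B cell genes than Day 90 blood of the same animals. Genes were called changed at an adjusted p of at most 0.05 (quasi-likelihood test of edgeR with the animal as a block) and a fold change of at least 1.5. There were 2133 such genes, 1071 higher on Day 120 (7.79% of those tested) and 1062 lower (7.72%). The direction was shared by at least 12 of 14 animals in 1204 of them and by all 14 in 78, and in none did the 14 values of Day 90 and the 14 values of Day 120 fail to overlap. The split between higher and lower genes was 1357 higher and 551 lower with TMM scaling and 1581 and 677 in DESeq2, which changes both the scaling and the test. The median log2 fold change of all tested genes was -0.18 with the upper quartile scaling used here, -0.08 with TMM and -0.06 in DESeq2. Leaving out single animals gave 1261 (without B1506) to 2654 calls (without B1502).

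Without the 6 animals, edgeR called no gene. In this fit of 8 animals 955 genes had an unadjusted p under 0.05, the smallest adjusted p was 0.355 and the median log2 fold change of all tested genes was -0.03. DESeq2 called 73 genes in the same 8 animals, 56 higher and 17 lower. A fit of 8 animals is also smaller than one of 14. In the 6 males, and in the 9 animals drawn again on Day 150, edgeR called none either, though both groups hold some of the animals with high FKBP5. The lack of calls in the 8 therefore does not show that the step was confined to the others. Of the 1071 genes called higher in 14 animals, 1066 were also fitted higher in the 8, and of the 1062 called lower, 1044 were fitted lower. These 8 animals took part in choosing those genes. The changes were smaller in them, with a median log2 fold change of 0.42 against 0.89 for the genes called higher and of -0.29 against -0.72 for those called lower.

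**Figure D2:**
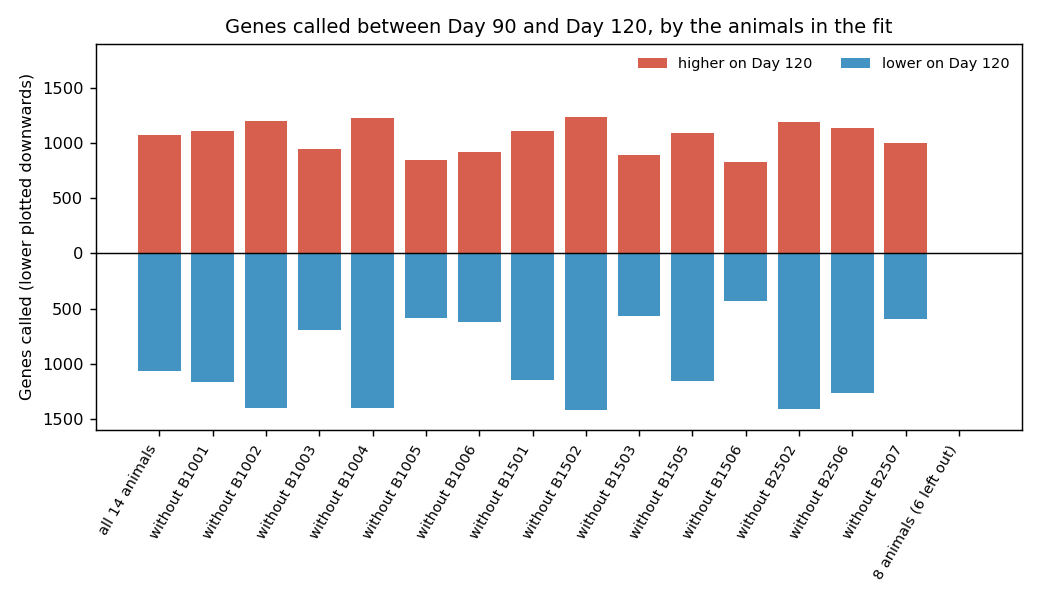
Number of genes called higher (above 0) and lower (below 0) on Day 120 against Day 90 under different choices of animals, among them fits with single animals left out. The bars reach 1071 and 1062 with all 14 animals and are empty without the 6 animals.

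Genes that glucocorticoids are known to raise were higher on Day 120 as a group. Of 21 tested members of this list, 13 rose (61.9%, against 7.79% of all tested genes) and none fell. The median log2 fold change was 1.08 against -0.18 over all tested genes. Without the 6 animals none was called and the median was 0.24. The mean step of the list, which holds FKBP5 itself, lay between 1.69 and 2.44 (log2) in each of the 6 animals and between -0.18 and 0.81 in each of the other 8, and B1004 was the only animal below 0.

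FKBP5 itself was higher on Day 120 in 10 of 14 animals, with a log2 fold change of 1.48 ± 0.49 (SE, n = 14 pairs, adjusted p = 0.031). The call was lost when any single one of the 6 animals was left out (adjusted p = 0.063 without B1003 to 0.0728 without B1506). In the 8 animals the fitted value was -0.04. The animals were split by FKBP5 itself, which fixes the value in the 8 and makes a weaker FKBP5 fit without any of the 6 likely. ZBTB16, a zinc finger repressor, had 12.6 to 40.5 CPM on Day 90 (median 19.9 CPM). On Day 120 it had 471 to 1736 CPM in the 6 libraries with high FKBP5 and 12.2 to 58.04 CPM in the other 8. Its log2 fold change was 2.13 ± 0.71 (adjusted p = 0.0331), and its call too was lost without any 1 of those 6 animals (0.0639 without B2507 to 0.077 without B1506). PER1, a component of the circadian clock, stood at 24.2 to 65.2 CPM on Day 90 and at 260 to 898 CPM in the 6 libraries, against 31.1 to 100.9 CPM in the other 8 on Day 120. It rose by 1.72 ± 0.46 (adjusted p = 0.0143).

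TSC22D3, which encodes the glucocorticoid-induced leucine zipper, rose in 13 of 14 animals, from a median of 1018.5 CPM to 1759.5 CPM (log2 fold change 1.20 ± 0.27, adjusted p = 0.00593). Its Day 120 values were 3467 to 9136 CPM in the 6 libraries and 968 to 1851 CPM in the others. DUSP1, a phosphatase that switches off MAP kinases, and IRS2, an adaptor of the insulin receptor, had the smallest p of the list. DUSP1 rose by 1.75 ± 0.37 (adjusted p = 0.00466), and held 1187 to 3208 CPM in the 6 libraries against 192 to 1147 CPM in the other 8. IRS2 rose by 1.33 ± 0.28 (adjusted p = 0.00436). TXNIP, which binds thioredoxin, reached 10199 to 22767 CPM in the 6 libraries and 1467 to 3169 CPM in the others (1.33 ± 0.36, adjusted p = 0.0139). For ZBTB16, PER1, TSC22D3 and TXNIP the 6 libraries lay above all other 22 of these 2 days, as they did for FKBP5, by which they were picked. How many of all tested genes separate them in this way was not counted. The median step of all tested genes separated the 6 animals too, with -0.39 to -0.24 against -0.07 to 0.04 in the other 8. FKBP5, ZBTB16, PER1, TSC22D3 and TXNIP were chosen for the text after their values were seen. In the fit without the 6 animals PER1 was at 0.26, TSC22D3 at 0.43, DUSP1 at 0.70, IRS2 at 0.48 and TXNIP at 0.24, and none was called.

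Levels of other genes were read in all libraries of the series with high FKBP5. In the 14 libraries of the series above 1000 CPM of FKBP5, ZBTB16 had 211 to 1736 CPM, and in the other 290 it had 4.01 to 241 CPM (median 18.7 CPM). IL18R1 had 445 to 1704 CPM in the 14 libraries and at most 366 CPM in the others. Of 9 genes read in this way, IL18R1 was the one whose ranges did not overlap. Among the other 290 libraries, 2 had more ZBTB16 than the lowest of the 14, 2 more IL1RL1, 3 more PER1, 4 more IL1R2, 9 more TSC22D3, 28 more S100A12 and 55 more MMP8, while for CD22 the 14 libraries held 2.34 to 42.8 CPM and the others 4.75 to 203.2 CPM. These ranges are descriptions of libraries picked by their FKBP5 level.

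The sequence upstream of the start of 2 of these genes is shown because both are among the genes that were far higher in the 6 libraries, and only 1 holds the palindromic core of the binding site of the glucocorticoid receptor. The letters ACANNNTGT were searched in the 250 bases upstream of the annotated start in RefSeq's annotation of Mmul_10. Matches are in capitals. FKBP5 lies at chr4:133793708-133793957 (plus strand) and holds no match, and IL1RL1 lies at chr13:6096869-6097118 (plus strand) and holds 1 match, 212 bases upstream of the start.
FKBP5: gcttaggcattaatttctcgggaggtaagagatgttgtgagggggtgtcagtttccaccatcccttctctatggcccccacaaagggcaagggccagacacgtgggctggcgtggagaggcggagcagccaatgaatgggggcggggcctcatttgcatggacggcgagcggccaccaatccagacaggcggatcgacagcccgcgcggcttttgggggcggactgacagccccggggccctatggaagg
IL1RL1: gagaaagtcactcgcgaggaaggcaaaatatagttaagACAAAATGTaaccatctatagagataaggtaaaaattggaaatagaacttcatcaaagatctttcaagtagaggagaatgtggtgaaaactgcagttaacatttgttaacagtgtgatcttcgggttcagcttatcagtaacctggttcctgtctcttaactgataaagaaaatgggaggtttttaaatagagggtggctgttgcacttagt
Of the promoters of 1063 genes called higher 3.2% held the letters, as did 2.37% of 1054 called lower and 3.09% of 13641 tested genes. In the glucocorticoid-responsive list 1 of 21 promoters held them. The letters TTCNNNGAA, the core bound by STAT factors, were in 5.64% of promoters of genes called higher, in 5.69% of those called lower and in 5.59% of all tested. GAGGAAGT, bound by PU.1 of the myeloid lineage, was in 3.2%, 2.09% and 1.9%. Both strands were read, the matches are descriptions, and distant sites were not read.

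The receptors of the interleukin-1 and interleukin-18 family rose with the glucocorticoid-responsive list. IL1R2 belongs to both lists, so they are not separate sets of genes. Of 10 tested members 8 rose (80%, against 7.79% of all tested genes) and none fell. The median log2 fold change was 1.61, and 0.39 without the 6 animals, where none was called. Without B1506 there were 5 calls. The family holds signalling receptors, their shared accessory chains, decoys and the cytokines. The decoy receptor IL1R2, which binds interleukin-1 without signalling, went from 7.62 to 145.4 CPM on Day 90 (median 28.2 CPM) to 37.9 to 2598 CPM on Day 120 (median 103.9 CPM). It rose in 13 of 14 animals, with a log2 fold change of 3.01 ± 0.66 (adjusted p = 0.00526). The 6 libraries held 1023 to 2598 CPM of IL1R2 and the other 8 of Day 120 held 37.9 to 110.7 CPM. In the 8 animals the fitted change of IL1R2 was 1.14 ± 0.30, not called.

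Among the signalling receptors, IL1R1 rose by 1.64 ± 0.34 (adjusted p = 0.00409) and had 271 to 449 CPM in the 6 libraries and 48.3 to 143 CPM in the others on Day 120. IL1RL1, the receptor of interleukin-33, had 5.56 to 29.8 CPM on Day 90 and rose by 2.43 ± 0.77 (adjusted p = 0.0266). Its 6 high libraries held 422 to 937 CPM, and the other 8 of Day 120 held 4.82 to 45.3 CPM. The call of IL1RL1 was lost without any 1 of the 6 animals (adjusted p = 0.0531 without B1003 to 0.0615 without B1503). In the 8 animals the fitted change of IL1RL1 was 0.21. IL18R1, the ligand-binding chain of the interleukin-18 receptor, rose by 2.41 ± 0.72 (adjusted p = 0.0221). It held 607 to 1704 CPM in the 6 libraries and 13.8 to 42.5 CPM in the others, and lost its call without B1506 (adjusted p = 0.0524). The 8 animals gave 0.33 for IL18R1.

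The accessory chains rose as well, IL18RAP by 2.30 ± 0.51 (adjusted p = 0.00543) and IL1RAP by 1.58 ± 0.33 (adjusted p = 0.00415). IL1RAP had 693 to 1449 CPM in the 6 libraries and 132.7 to 283.3 CPM in the other 8. The soluble antagonist IL1RN rose by 0.83 (adjusted p = 0.0084). The cytokine IL1B had a log2 fold change of 0.52 (adjusted p = 0.0982), and the inhibitor IL18BP had -0.52 (adjusted p = 0.0163, under the fold needed), so neither was called. Of the 10 promoters of this list, 2 held the receptor core searched above.

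Other surface molecules were among the largest increases. ENTPD3, an enzyme that breaks down extracellular nucleotides, rose in all 14 animals, from 5.49 to 59.5 CPM (median 14.8 CPM) on Day 90 to 12.8 to 601 CPM (median 51.2 CPM) on Day 120. Its log2 fold change was 2.37 ± 0.51 (adjusted p = 0.00509), and its value in the 8 animals was 0.84, not called. UNC5D, a netrin receptor, rose by 2.42 ± 0.54 (adjusted p = 0.00578). KIT, the receptor of stem cell factor, rose by 1.95 ± 0.55 (adjusted p = 0.0174) and was fitted at 0.29 in the 8 animals. It had 121.5 to 301 CPM in the 6 libraries and 7.84 to 45.9 CPM in the other 8. It stood in the list of basophil and mast cell markers, where CPA3, a protease of mast cell and basophil granules, moved the other way. CPA3 fell by 2.14 on the log2 scale (SE 0.49, adjusted p = 0.00713), from a median of 2.76 CPM to 0.335 CPM, and was lower in 12 animals and higher in 1. Those 2 were the called genes of 6 tested in that list (median -0.90). Each is 16.7% of the list, against 7.79% higher and 7.72% lower of all tested genes.

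Neutrophil genes rose broadly. Of 22 tested genes of mature neutrophils 19 rose (86.4%) and none fell (median log2 fold change 1.20). Of 16 tested genes of neutrophil granules 12 rose (75%) and none fell (median 1.33). Of all tested genes 7.79% rose. In the fit without the 6 animals no member was called, and the medians were 0.66 and 0.69 against -0.03 for all tested genes. In 13 of 14 animals the mean step of both lists was above 0, the exception being B1004. The mean step of the mature list was between 1.17 and 2.71 in the 6 animals and between -0.26 and 1.43 in the other 8, so the ranges overlapped. That of the granule list was between 1.54 and 2.52 in the 6 and between -0.47 and 1.45 in the other 8, which do not overlap. The median step of all tested genes, -0.39 to -0.24 in the 6 and -0.07 to 0.04 in the other 8, did not overlap either.

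S100A9, a subunit of calprotectin, went from 15.9 to 671 CPM (median 213.8 CPM) on Day 90 to 259 to 2727 CPM (median 987 CPM) on Day 120. It rose in 13 of 14 animals (log2 fold change 2.02 ± 0.33, adjusted p = 0.00293) and had 1.37 ± 0.34 in the 8 animals. S100A12 rose by 2.39 ± 0.46 (adjusted p = 0.00341), and PROK2, a chemoattractant peptide, by 1.25 ± 0.22 (adjusted p = 0.00293). CXCR2, the receptor for neutrophil-attracting chemokines, rose by 1.34 ± 0.25 (adjusted p = 0.00308), from a median of 254 CPM to 536 CPM. For S100A9 the Day 120 values were 368 to 2727 CPM in the 6 libraries and 259 to 1749 CPM in the others, which overlap.

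BPI, the bactericidal permeability-increasing protein, was higher on Day 120 in all 14 animals. It went from 0.305 to 20.2 CPM (median 4.84 CPM) to 7.33 to 54.1 CPM (median 17.0 CPM), with a log2 fold change of 2.05 ± 0.34 (adjusted p = 0.00293) and 1.39 ± 0.32 in the 8 animals. MMP8, the neutrophil collagenase, went from a median of 1.44 CPM to 6.76 CPM, with a single value of 616 CPM on Day 120, and rose by 3.08 ± 0.53 (adjusted p = 0.00293). In the 8 animals it was fitted at 1.59 ± 0.36. LCN2, the siderophore-binding lipocalin, rose by 2.38 ± 0.45 (adjusted p = 0.00317). AZU1, OLFM4, ARG1 and RETN of the granule list did not pass the test, nor did FCGR3, ALPL and FFAR2 of the mature list. Before irradiation, in the 12 of these animals with a Day -2 library, the medians were 221.1 CPM for S100A9, 4.76 CPM for BPI and 1.35 CPM for MMP8. They were close to those of Day 90, but those libraries carried numbers of another range and held 10851683 to 13575225 counts.

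**Figure D3:**
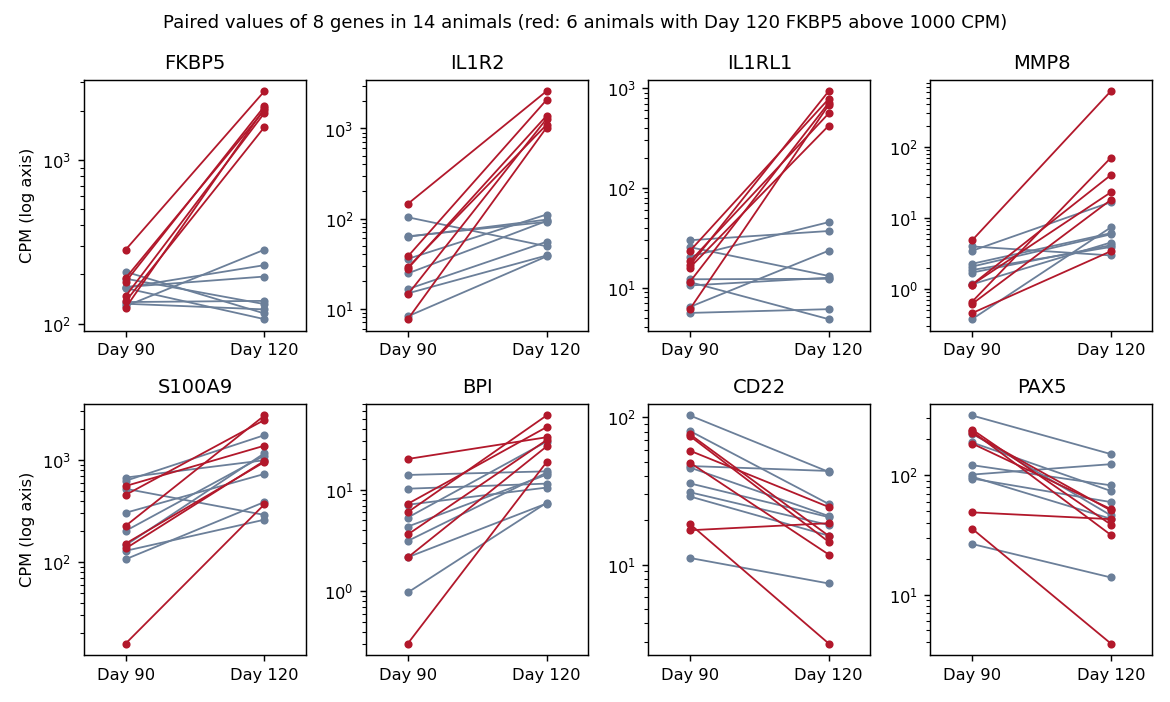
Levels (CPM, log axis) on Day 90 and Day 120 of single genes, 1 line per animal, with the 6 animals above 1000 CPM of FKBP5 on Day 120 in colour. BPI rises in all 14 animals and S100A9 in 13, and CD22 and PAX5 fall in 13 of 14. The steepest lines of IL1R2 and IL1RL1 are those of the 6 animals.

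Receptors that myeloid cells use to sense microbes and tissue damage rose with the neutrophil genes. Of 17 tested Toll-like receptor and inflammasome genes 12 rose (70.6%, against 7.79% of all tested genes) and none fell. The median log2 fold change was 1.08, and 0.53 in the 8 animals with no call. TLR8, the endosomal sensor of single-stranded RNA, rose in all 14 animals, from 46.3 to 174 CPM (median 90.7 CPM) to 90.6 to 510 CPM (median 228.7 CPM). Its log2 fold change was 1.20 ± 0.21 (adjusted p = 0.00293). NLRP12, an intracellular sensor of the myeloid lineage, rose by 1.23 ± 0.23 (adjusted p = 0.00325), and TLR4, the receptor of lipopolysaccharide, by 1.18 ± 0.25 (adjusted p = 0.00466). NLRP3 had 0.46 (adjusted p = 0.0268), under the fold needed, and PYCARD, CASP4, GSDMD and IRAK4 did not pass either. Of 8 tested C-type lectins of myeloid cells 4 rose (50%). CLEC4D, which pairs with CLEC4E to sense mycobacterial glycolipids, had 0 to 8.45 CPM on Day 90 (median 1.09 CPM) and 1.29 to 181 CPM on Day 120 (median 6.40 CPM). It had the largest fold change of the named genes, 3.16 ± 0.65 (adjusted p = 0.00409). CLEC4E rose by 2.65 ± 0.47 (adjusted p = 0.00293), with 31.2 to 148 CPM in the 6 libraries and 2.48 to 16.5 CPM in the other 8.

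In the complement list 5 of 13 tested genes rose, among them CD59, which protects cells from lysis (0.88 ± 0.19, adjusted p = 0.00523), and CFD, the protease of the alternative pathway (0.97 ± 0.22, adjusted p = 0.00699). Of 25 tested genes of hypoxia and glycolysis 8 rose and none fell. VEGFA, the endothelial growth factor, was higher on Day 120 in all 14 animals. It went from 2.78 to 18.01 CPM (median 6.31 CPM) to 7.01 to 40.9 CPM (median 14.2 CPM), a log2 fold change of 1.12 ± 0.19 (adjusted p = 0.00293) and of 0.76 in the 8 animals. PFKFB4, which controls the rate of glycolysis, rose by 1.43 ± 0.25 (adjusted p = 0.00293). Among 18 tested genes of cytokine signalling by SOCS and STAT proteins 3 rose, STAT5B, STAT3 and BCL3, and 1 fell, JAK3. STAT5B had the smallest p (0.80 ± 0.18, adjusted p = 0.00578), and STAT3 rose by 0.70 ± 0.19 (adjusted p = 0.0151). These shares are above the 7.79% of all tested genes called higher, and none of these genes was called in the fit without the 6 animals.

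B cell genes fell. Of 22 tested members 20 fell and none rose (7.72% of all tested genes fell), with a median log2 fold change of -1.13, and of -0.62 in the 8 animals, where none was called. The mean step of the list was below 0 in 13 of 14 animals, the exception being B2502, and it was -2.23 to -0.22 in the 6 and -1.52 to 0.51 in the other 8. PAX5, the transcription factor that holds B cell identity, went from 26.5 to 317 CPM (median 153 CPM) to 3.88 to 150 CPM (median 48.4 CPM). It fell by 1.44 on the log2 scale (SE 0.25, adjusted p = 0.00293), in 13 of 14 animals. CD22, an inhibitory receptor of B cells, went from 11.1 to 102.8 CPM (median 46.1 CPM) to 2.91 to 43.2 CPM (median 18.8 CPM), and also fell in 13 of 14 animals (-1.23 ± 0.21, adjusted p = 0.00293).

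For CD22 the 6 libraries held 2.91 to 24.6 CPM on Day 120 and the other 8 held 7.44 to 43.2 CPM, overlapping ranges, and the 8 animals had a fitted change of -0.89 ± 0.17. PAX5 had -0.97 ± 0.22 in them. CD79B, a signalling chain of the B cell receptor, fell by 1.19 on the log2 scale (SE 0.25, adjusted p = 0.00466), and MS4A1, which encodes CD20, by 1.17 (SE 0.23, adjusted p = 0.00361). TCL1A, a marker of naive B cells, fell by 1.67 (SE 0.36, adjusted p = 0.00518), from a median of 12.2 CPM to 3.75 CPM. CD22 had been at a median of 77.8 CPM and PAX5 at 219.5 CPM on Day -2 in the 12 animals measured then. The Day 90 medians were below these. The Day -2 libraries carried numbers of another range and held 10851683 to 13575225 counts, so day and library cannot be told apart. The members TNFRSF13C (adjusted p = 0.0547) and POU2AF1 (under the fold needed) were not called. Of 10 tested plasma cell genes 1 fell, IRF4 (-0.67 ± 0.15, adjusted p = 0.00609), and the median was 0.12.

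The T cell list depended on the 6 animals and on the scaling. Of 16 tested members 12 fell and none rose (75%, against 7.72% of all tested genes, median log2 fold change -0.62), but 3 were called lower with TMM scaling, which called 551 of all 13751 genes lower, and 5 in DESeq2, which called 677. Without the 6 animals none was called and the median was -0.06. Leaving out single animals gave 2 (without B1006), 3 (without B1506 or B2507) and 5 calls (without B1005 or B1503) at the low end. BCL11B, a transcription factor of the T lineage, went from 203 to 579 CPM (median 329 CPM) to 50.98 to 423 CPM (median 210 CPM). It fell by 0.83 on the log2 scale (SE 0.20, adjusted p = 0.00909), in 11 of 14 animals. CD4, the coreceptor of helper T cells, fell by 0.88 (SE 0.24, adjusted p = 0.0144), with 8.01 to 44.7 CPM in the 6 libraries and 53.3 to 96.98 CPM in the other 8 on Day 120.

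Among 10 tested genes of naive lymphocytes 3 fell (30%, none without B1005, B1006 or B1506) and 1 rose (10%). Of all tested genes 7.72% fell and 7.79% rose. LEF1, a transcription factor of naive T cells, fell by 0.98 (SE 0.30, adjusted p = 0.0234), and lost its call without B1005 (adjusted p = 0.0503), B1006 (0.0508) or B1506 (0.057). Of 20 tested genes of cytotoxic lymphocytes 1 rose, NCR3, an activating receptor of natural killer cells (0.76 ± 0.14, higher in 13 of 14 animals, adjusted p = 0.00303), and 2 fell, CTSW and CD8B (none without B1006, B1503, B1506 or B2507). These shares of 5% and 10% lie near those of all tested genes, 7.79% and 7.72%. Granzymes, perforin and GNLY were not called. TBX21, the transcription factor of cytotoxic and helper type 1 cells, had -0.58 (adjusted p = 0.021), just under the fold needed, and passed it without B1001, B1002, B1003, B1004 or B2506 (-0.65, -0.63, -0.65, -0.67 and -0.62).

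Monocyte genes moved both ways. Of 15 tested members 5 rose (33.3%) and 2 fell (13.3%), against 7.79% and 7.72% of all tested genes (median -0.21). The smallest p belonged to MS4A7, a membrane protein of monocytes and macrophages, which fell by 1.14 (SE 0.22, adjusted p = 0.00325). LILRB4, an inhibitory receptor, rose by 1.14 ± 0.26 (adjusted p = 0.00683). All 5 tested eosinophil genes had fitted values below 0 (median -0.89), and 2 of them were called (40%, against 7.72% of all tested genes). These were CCR3, the eotaxin receptor (-0.78 ± 0.27, adjusted p = 0.037), and ALOX15, a lipoxygenase (-0.71 ± 0.25, adjusted p = 0.0425). Under TMM scaling neither was called, while DESeq2 called 4 of the list, and leaving out single animals gave 0 (without B1002) to 5 (without B1004). CCR3 lost its call in 8 of the 14 fits without 1 animal (highest adjusted p = 0.0774, without B1003) and ALOX15 in 10 (0.0899, without B1503). The mean step of the eosinophil list ranged from -3.49 to 1.64 over the animals.

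Of 16 tested platelet genes 1 was called (6.25%, against 7.79% higher among all tested genes), GP1BB, a chain of the von Willebrand factor receptor (0.94 ± 0.35, adjusted p = 0.0484). DESeq2 called 10 of that list, and edgeR called from 0 (without B1005, B1006, B1503, B1506 or B2506) to 10 (without B1502). GP1BB lost its call in 9 of the 14 fits without 1 animal (highest adjusted p = 0.106, without B1506). Of 26 tested erythroid genes 3 rose (11.5%), a share near that of all tested genes, of which SLC25A37, which carries iron into mitochondria, had the smallest p (1.40 ± 0.27, adjusted p = 0.00346), and the median was 0.42. Leaving out single animals gave 1 (without B1003, B1005, B1006, B1503 or B1506) to 6 (without B2506). Without the 6 animals the erythroid median was -0.07. The platelet median was 0.56 with all 14 animals and 0.08 without the 6. ALAS2, the enzyme that starts haem synthesis in red cells, had 0.30 (adjusted p = 0.433). In the p53 target list 4 of 22 tested genes rose and 1 fell (4.55%, against 7.72% of all tested genes), with a median of 0.07. MDM2, the ubiquitin ligase of p53, rose by 1.14 ± 0.25 (adjusted p = 0.00558), with 754 to 1408 CPM in the 6 libraries and 182 to 355 CPM in the other 8. CDKN1A, the p53-induced inhibitor of the cell cycle, had 0.05 (adjusted p = 0.854).

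Of 30 tested interferon-response genes none was called by edgeR or DESeq2 (3 had an unadjusted p under 0.05 in edgeR). The median was 0.12 with all 14 animals and -0.10 without B2507, whose mean step was 4.35 on the log2 scale. IFIT2, an interferon-induced protein that binds RNA, went from 49.8 to 3830.5 CPM in that animal. None of 26 replication and mitosis genes (3 at an unadjusted p under 0.05) and none of 75 cytosolic ribosomal protein genes (13) was called by edgeR or DESeq2. Their medians were -0.09 and -0.29, and the median of the replication genes changed sign with the scaling (0.01 with TMM, 0.04 in DESeq2). For these 3 lists edgeR gave no call in the 8 animals either.

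**Figure D4:**
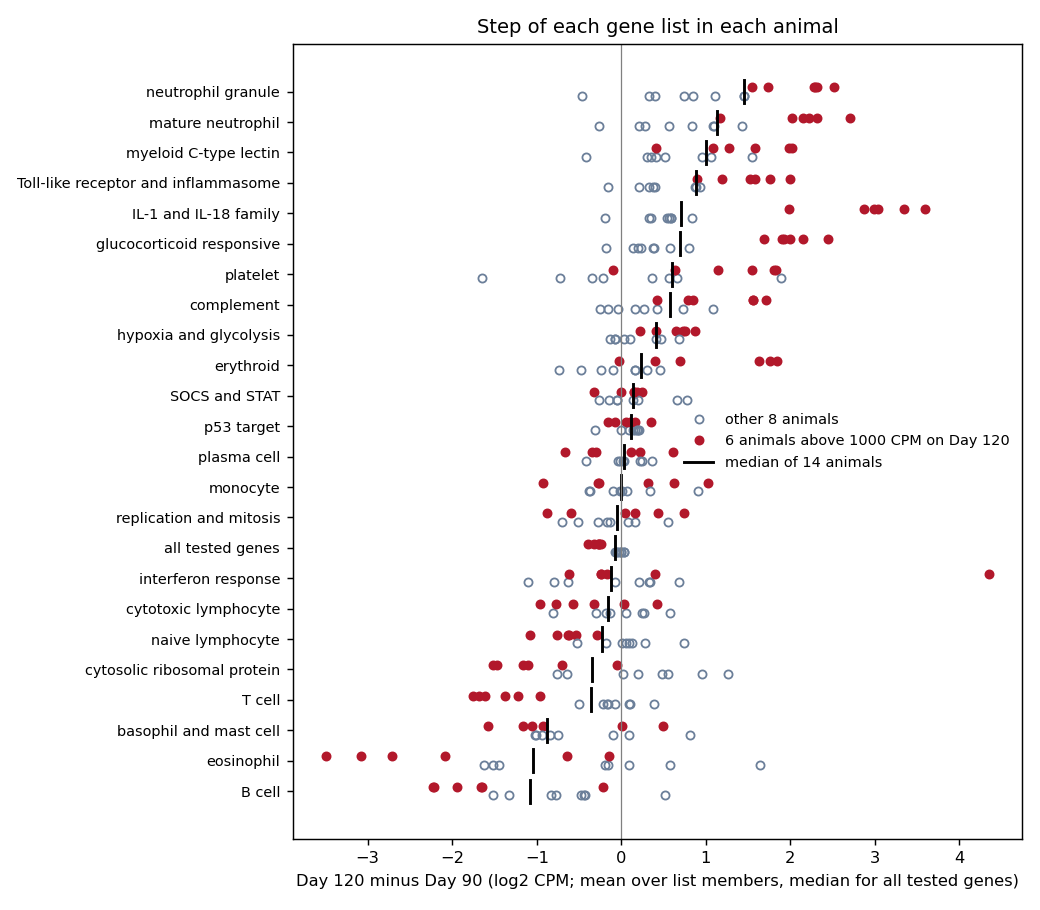
Mean change from Day 90 to Day 120 (log2) of each gene list in each of the 14 animals, with the 6 animals above 1000 CPM of FKBP5 on Day 120 in colour. For the glucocorticoid-responsive list the 6 lie between 1.69 and 2.44 and the others between -0.18 and 0.81. The ranges of the interleukin-1 and interleukin-18, neutrophil granule and T cell lists do not overlap either, while those of the B cell and mature neutrophil lists do. The median over all tested genes does not overlap either, with -0.39 to -0.24 in the 6 and -0.07 to 0.04 in the other 8.

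Among the largest decreases were several genes outside the lists. SLCO5A1, a solute carrier, was lower on Day 120 in all 14 animals, from 1.51 to 12.9 CPM (median 3.99 CPM) to 0 to 2.85 CPM (median 1.68 CPM). It fell by 1.77 (SE 0.31, adjusted p = 0.00293), and the 8 animals gave -1.37, not called. BAHCC1, a chromatin reader, fell by 1.97 (SE 0.43, adjusted p = 0.00528), HS3ST1, a sulfotransferase of heparan sulfate, to a log2 fold change of -1.596 (SE 0.29, adjusted p = 0.00293), and ELFN2 by 1.57 (SE 0.31, adjusted p = 0.00325). SAG, PTPRG, FAM81A and CDH6 fell by 1.64, 1.64, 1.63 and 1.63. Of genes known from earlier results of these data, CCDC141 fell by 1.51 (SE 0.33, adjusted p = 0.00516) and CSTA, an inhibitor of cysteine proteases, rose by 0.85 ± 0.29 (adjusted p = 0.0356). The call of CSTA was lost without B1005, B1501, B1502, B1503, B1505, B1506 or B2507 (adjusted p = 0.0533 to 0.0789). DENND2A had -0.66 (adjusted p = 0.0795) and was called only without B1002 (0.0443) or B1003 (0.0316).

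The step was set beside the preceding and the following one in the same animals. From Day 60 to Day 90, 31 genes were called in the 14 animals, 25 higher (0.182% of 13751) and 6 lower (0.0436%), or 0.225% in all. Leaving out single animals gave from 0.0509% (without B1002) to 1.55% (without B1501), and DESeq2 called 1.73%. From Day 120 to Day 150, with 9 animals, edgeR called none (767 genes at an unadjusted p under 0.05) and DESeq2 called 7. Only 5 of these 9 animals carried the library number 0 on both days. In those 5 edgeR called none (465 genes at an unadjusted p under 0.05). The rest changed from another number to 0, which bears on all values given for that step. In the same 9 animals edgeR called none from Day 90 to Day 120 either, with 4026 genes at an unadjusted p under 0.05, so these 9 animals do not show a difference in counts of calls. The difference between the Day 60 to 90 step and the Day 90 to 120 step, tested gene by gene in 1 model, gave no call (1241 genes at an unadjusted p under 0.05, 1628 in DESeq2, which called none). The steps share the libraries of the day between them.

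From Day 60 to Day 90 the same lists had median log2 fold changes of -0.56 for B cell, 0.53 for mature neutrophil, 0.25 for glucocorticoid-responsive and 0.67 for interleukin-1 and interleukin-18 genes. From Day 120 to Day 150 the medians were -0.51 for B cell, 0.03 for mature neutrophil and 0.03 for glucocorticoid-responsive genes. CD22 had a median of 10.3 CPM on Day 150 in 9 animals and of 15.2 CPM on Day 270 in 6. IL1R2 had a median of 97.6 CPM, S100A9 of 625 CPM and BPI of 18.1 CPM on Day 150.

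The distance between 2 libraries of an animal, the root mean square of the log2 differences over all tested genes, gives 1 value per animal and step. It was 0.41 to 0.844 from Day 60 to Day 90 (0.651 ± 0.151, SD, n = 14) and 0.423 to 1.28 from Day 90 to Day 120 (0.869 ± 0.292, SD, n = 14). The later step was longer by 0.218 on average and in 10 of 14 animals (exact sign-flip permutation test over animals, two-sided, p = 0.0306). In 7 animals it was longer than the longest earlier step. In the 6 animals the later distance was 1.02 to 1.28 and in the other 8 it was 0.423 to 0.91. Without the 6 animals the mean difference was -0.0355 (exact permutation test, p = 0.562, n = 8). Leaving out any single one of them moved p above 0.05 (exact permutation test, n = 13, p = 0.0571 without B1003, 0.0613 without B1005, 0.0601 without B1006, 0.0537 without B1503, 0.0613 without B1506 and 0.0581 without B2507). The share of genes that differed at least 2-fold was 11.9 ± 6.25% for the earlier step and 22.5 ± 13.8% for the later one (SD, n = 14).

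**Figure D5:**
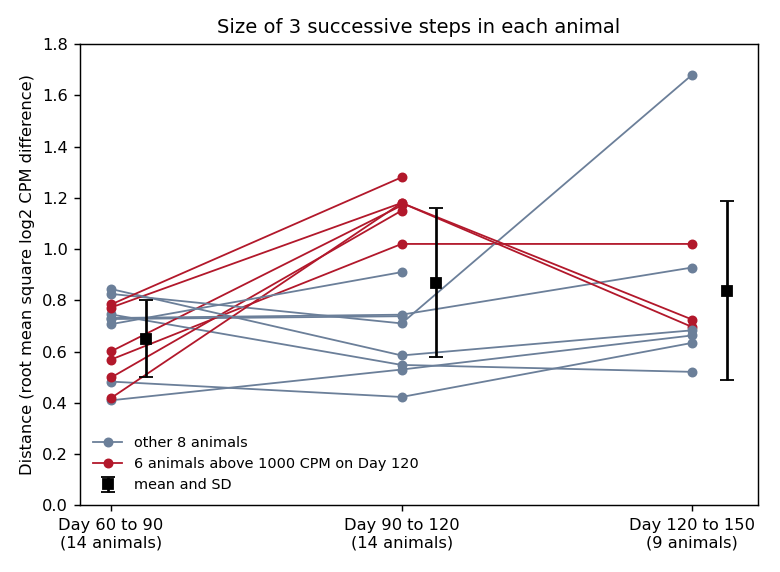
Distance between consecutive libraries of an animal (root mean square of log2 differences over 13751 genes) for Day 60 to 90, Day 90 to 120 and Day 120 to 150, 1 line per animal. The 6 animals above 1000 CPM of FKBP5 on Day 120 lie between 1.02 and 1.28 for the Day 90 to 120 step and the other 8 between 0.423 and 0.91, and the highest value of Day 120 to 150 is 1.68.

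The step was also compared between doses, sexes and lengths of follow-up, and edgeR called no gene in any of these 3 tests. In simulated counts with a 2-fold difference by follow-up given to 200 genes, edgeR recovered 0 and DESeq2 30. The lack of calls therefore does not show that the steps were alike. At an unadjusted p under 0.05 there were 627 genes for dose (11 LD against 3 HD animals), 360 for sex and 533 for animals drawn to Day 270 against those last drawn by Day 172. DESeq2 called 1 gene for sex and none for the other 2. In LD animals alone 2283 genes were called, 1160 higher and 1123 lower. In the 8 females alone there were 612, and in the 6 males alone none, with 3325 genes at an unadjusted p under 0.05, so the sexes were not shown to differ. Within the libraries numbered 0, the 10 animals gave 529 calls, 402 higher and 127 lower, and the 4 animals of the other numbers gave none (2473 genes at an unadjusted p under 0.05). The 6 animals with high FKBP5 were 4 of the 10 and 2 of the 4.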

How the data were processed

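Whole blood RNA was depleted of ribosomal RNA and sequenced by the authors, who trimmed reads with cutadapt 2.10, aligned them with STAR 2.7.6a to Mmul_10 and counted RefSeq genes with Subread 2.0.1, per the labels. The deposited raw counts of 28 libraries were analysed, and the authors' deposited log2 values (scaled by the upper quartile) were used in limma 3.58.1 as an alternative. A gene entered when 80% or more of the libraries of the series held 3 or more of its reads, and was tested with edgeR 4.0.16 (R 4.3.3, upper quartile scaling, quasi-likelihood test, animal as the replicate block, Benjamini-Hochberg adjustment). The block rests on both libraries of a pair coming from 1 animal. Distances were compared by exact permutation. The members, lists and alternatives were chosen with earlier results of these data known. Genes named were the 10 highest and 10 lowest called genes that moved alike in at least 12 animals with a mean of at least 1 CPM, the 2 with the smallest p in each list, 7 known from earlier results, and others said to be chosen after their values were seen, to which TLR4, CXCR2, MS4A1, CD4, IL1RN, IL18RAP and the genes given as not called belong. Some genes that this rule names are not reported here. DESeq2 1.42.0 was an alternative. Python 3.11.15 and matplotlib 3.10.9 drew the plots. Whether counting used the strand is not given in the sources used here. Replicates are animals. An interval of a log2 fold change is the SE of the fitted change, derived from the test, and not the spread between animals. Where SD is written, it is the spread between animals.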

Additional observations from a re-analysis of the deposited data

Results flagged for a closer look

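In the interferon-response list the mean step of B2507 from Day 90 to Day 120, 4.353 on the log2 scale, stood far from those of the other animals last drawn by Day 172 (n = 8). The distance from Day 120 to Day 150 of B1502, 1.68, stood far from those of the other animals drawn on both days (n = 9). Of 53 groups searched for such a sample these 2 were found, and chance alone gives about 1 in 20. The distance from Day 90 to Day 120 exceeded that from Day 60 to Day 90 by 0.2178 on average (exact sign-flip permutation test, p = 0.0306, n = 14), and this was not so without the 6 animals with high FKBP5.

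FKBP5 exceeded the highest Day -2 value of 437.3 CPM in libraries that enter no comparison here. It was 1857 CPM in B1001 on Day 127, 1335 CPM on Day 240 and 1573 CPM on Day 270 in B1503, 1355 CPM on Day 240 and 1800 CPM on Day 270 in B2502, 1311 CPM in B2003 on Day 40 and 2057 CPM in B2004 on Day 71. Lower values above that limit were 717 CPM in B2001, 594 CPM in B2501 and 586.8 CPM in B2505, all on Day 60, 575.6 CPM in B2007 on Day 40 and 488.3 CPM in B2504 on Day 94. Dexamethasone dosing by animal and day was not used here, so its part in these values was not tested.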

How the results depend on the processing

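The count of 2133 changed genes for Day 120 against Day 90 stayed within 1.5 times with TMM scaling, DESeq2, no filter on low counts, the deposited log2 values in limma (2149), LD animals only and 1 fit of all libraries of the series. With no replicate block (no pairing by animal) it was 1561, of which 1410 were called with the block. It moved to 529 in the 10 animals with library number 0, to 0 in the 4 others, 612 in females, 0 in males and 0 in the 9 animals drawn again on Day 150. Without the 6 animals with high FKBP5, an alternative chosen after seeing the data, it was 0 in edgeR, 0 with TMM scaling and 73 in DESeq2, and the fitted log2 fold changes of RPL3 (-0.51 in 14 animals) and FKBP5 turned to 0.02974 and -0.03743, the latter fixed by the choice of animals. Leaving out single animals gave 1261 to 2654. For Day 90 against Day 60 the 0.225% of tested genes called became 1.73% in DESeq2, 0.491% without the filter, 0 with no replicate block, 0.0359% in limma, 0 without the 6 animals and 0.0509 to 1.55% with single animals left out. DESeq2 gave 7 calls for Day 150 against Day 120 and 1 for sex. The longer distance of the step, 0.218, was 0.176 to 0.255 with single animals left out and -0.0355 without the 6. The difference from the Day 120 to 150 distance was -0.0699 (exact permutation test, p = 0.68, n = 9), 0.0322 with genes of at least 100 counts on average, and -0.139 to 0.0422 with single animals left out. Where the cause of a move is not the smaller number of animals, it was not tested. Genes near 1 CPM rest on few counts per library, so genes that were not called are not shown to be unchanged.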
